A study of Homo sapiens with 12 samples.

Results

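Of 18845 H3K4me3 peaks found in both vehicle libraries of MKL-1 cells, 3379 lay mostly under H3K27me3 as well and are described here as bivalent peaks. They were chosen from 22102 merged H3K4me3 peaks of vehicle replicate 1 on chromosomes 1 to 22. A bivalent peak overlapped a peak of vehicle replicate 2 and had at least 50% of its bases inside H3K27me3 peaks in each of the 2 vehicle H3K27me3 libraries. The remaining 15466 replicated peaks, of which 11496 had no base under vehicle H3K27me3, served for comparison. Both vehicle marks were thus used in the choice, and their vehicle values are description only. The EPZ011989 libraries were not used in it.

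MKL-1 is an established line grown from a polyomavirus-positive Merkel cell carcinoma. Duplicate cultures received either EPZ011989, which blocks the methyltransferase EZH2, at 3 µM in 1% ethanol, or 1% ethanol alone as vehicle, with medium changed on day 3 and harvest on day 6. Each culture was divided among H3K27me3, H3K4me3 and control IgG antibodies, all at 1:100, for CUT&RUN, in which an antibody directs a nuclease to cut out the chromatin it binds. This gave 12 libraries, 2 for each antibody and treatment. All are from 1 cell line, and the labels do not say whether the duplicates came from separately maintained stocks, so the spread between them may be technical.

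H3K4me3 is laid down at active and poised promoters by MLL/SET1 methyltransferases, and H3K27me3 is laid down by EZH2 within Polycomb repressive complex 2 and marks silenced genes. Promoters that hold both marks were first described in embryonic stem cells, where many belong to regulators of development. In a bulk assay the overlap of both peaks does not show that the marks sat on the same allele or in the same cell, and a change in the number of marked cells cannot be told apart from a change in signal per cell.

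The RefSeq promoter sequences below (GRCh38.p14, 250 bases before the start site, CG dinucleotides in capitals) belong to bivalent peaks on which the results turn. HOXD11, TUBB2B and ZEB2 were among the 10 peaks whose H3K4me3-covered length stood highest above vehicle with EPZ011989, WNT9A and CD276 had the largest mean difference in the WNT and immune recognition lists, and EPHA5 had the largest gap in the other direction.
HOXD11, chr2:176107030-176107279, plus strand: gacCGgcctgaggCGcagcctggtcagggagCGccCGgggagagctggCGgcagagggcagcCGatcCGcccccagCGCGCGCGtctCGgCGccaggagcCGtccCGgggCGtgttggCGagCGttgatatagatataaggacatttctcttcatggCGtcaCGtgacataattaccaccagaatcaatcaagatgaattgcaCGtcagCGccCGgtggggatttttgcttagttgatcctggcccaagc
TUBB2B, chr6:3227654-3227903, minus strand: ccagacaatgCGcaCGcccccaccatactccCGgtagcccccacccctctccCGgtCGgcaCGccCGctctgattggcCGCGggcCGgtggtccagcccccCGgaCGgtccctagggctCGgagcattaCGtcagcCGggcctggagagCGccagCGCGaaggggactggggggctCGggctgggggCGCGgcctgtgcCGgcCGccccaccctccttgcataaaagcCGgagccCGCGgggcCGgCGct
WNT9A, chr1:227947933-227948182, minus strand: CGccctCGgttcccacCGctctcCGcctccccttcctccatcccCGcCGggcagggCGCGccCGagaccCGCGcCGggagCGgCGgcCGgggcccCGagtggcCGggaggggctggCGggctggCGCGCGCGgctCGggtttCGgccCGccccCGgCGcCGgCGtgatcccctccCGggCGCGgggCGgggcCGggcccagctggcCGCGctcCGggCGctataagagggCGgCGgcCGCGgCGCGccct
CD276, chr15:73684133-73684382, plus strand: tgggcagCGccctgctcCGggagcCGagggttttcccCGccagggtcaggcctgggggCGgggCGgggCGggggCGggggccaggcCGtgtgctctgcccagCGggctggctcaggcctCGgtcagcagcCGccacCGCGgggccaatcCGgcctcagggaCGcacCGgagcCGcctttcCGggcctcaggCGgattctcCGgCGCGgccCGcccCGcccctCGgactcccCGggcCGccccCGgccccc
ZEB2, chr2:144520120-144520369, minus strand: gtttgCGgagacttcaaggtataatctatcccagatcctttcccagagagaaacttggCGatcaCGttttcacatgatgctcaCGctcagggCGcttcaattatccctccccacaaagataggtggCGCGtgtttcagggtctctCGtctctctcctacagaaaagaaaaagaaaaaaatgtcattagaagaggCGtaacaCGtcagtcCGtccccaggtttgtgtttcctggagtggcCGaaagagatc
EPHA5, chr4:65670490-65670739, minus strand: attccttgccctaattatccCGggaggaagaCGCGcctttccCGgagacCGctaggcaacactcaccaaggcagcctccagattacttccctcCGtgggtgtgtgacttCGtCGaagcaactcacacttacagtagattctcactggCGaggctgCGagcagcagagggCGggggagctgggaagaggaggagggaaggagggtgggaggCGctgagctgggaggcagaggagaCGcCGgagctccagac
They ranged from the CpG-dense WNT9A promoter, with 44 CG in 250 bases, to that of ZEB2 with 12. For ZEB2, H3K4me3 peaks covered all 250 bases in both EPZ011989 libraries and 0 in both vehicle libraries; the bivalent peak itself lay downstream of this start site. For CD276, 250 bases were covered in both EPZ011989 libraries, against 52 and 250 in vehicle. The other 4 sequences were covered whole in all 4 libraries, so at those genes the difference lay outside the promoter sequence shown.

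H3K4me3 libraries held 22522 and 20532 peaks on these chromosomes with EPZ011989 and 22102 and 23193 in vehicle. The local background that the peak caller used, a stand-in for depth, was 1.48 and 1.24 fragments per base with EPZ011989 and 0.572 and 0.857 in vehicle. H3K27me3 peaks numbered 361 and 22 with EPZ011989, where that background was 0.373 and 0.148, and 40186 and 43634 in vehicle, where it was 1.12 and 1.63. IgG libraries held 4 to 37 peaks, and 2 of the bivalent peaks met one. Of 27 Merkel cell and neuroendocrine marker genes on these chromosomes, 23 had a replicated H3K4me3 peak in vehicle, among them ATOH1, SOX2, INSM1 and KRT20. KRT8, CALCA, SST and VIP had none.

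The H3K27me3 peaks that defined the members were absent from nearly all of them after treatment. H3K27me3 peaks covered 0.0492% and 0.00052% of member bases in the EPZ011989 libraries and 91.8% and 94.1% in the vehicle libraries. The lower background of the EPZ011989 H3K27me3 libraries moved with this loss, and its part was not tested. Only 6 bivalent peaks met any EPZ011989 H3K27me3 peak, 5 in replicate 1 and 1 in replicate 2. WNT1, a secreted WNT ligand, kept all 479 bases of its peak under H3K27me3 in EPZ011989 replicate 1 and 0 in replicate 2. A peak near the antisense RNA gene NRXN2-AS1 kept 729 bases in replicate 1, and peaks at MARCHF1, a ubiquitin ligase for immune surface proteins, and SH2D3A, a signalling adaptor, kept 447 and 232 bases. At WNT1, H3K4me3 covered 1969 and 1368 bp with EPZ011989, against 479 and 385 bp in vehicle.

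The H3K4me3 peaks themselves were retained. A peak remained on 98.2% of bivalent peaks in EPZ011989 replicate 1 (3318 of 3379, exact 95% binomial interval 97.7 to 98.6%) and on 94.6% in replicate 2 (3196, 93.8 to 95.3%). The same shares of the other replicated peaks were 93.0% and 84.9%. These intervals cover counting error only. Both libraries kept a peak on 3186 members, and 51 had one in neither. The widest of these 51 windows was at IGFBP6, which encodes an insulin-like growth factor binding protein. Its peak of 374 bp was lost, but neighbouring peaks still covered 1535 and 1870 bp of its window with EPZ011989, against 1566 and 1345 bp in vehicle.

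In vehicle, bivalent peaks were narrow. Their median length was 1210 bp (quartiles 725 and 1875 bp, range 244 to 9559 bp), against 1956 bp (873 and 2945 bp) for the other replicated peaks. Of the 3379, 2410 (71.3%) were covered whole by H3K27me3 in both vehicle libraries. The H3K27me3 peaks that held them had a median of 7.53 and 8.64 kb in vehicle replicates 1 and 2 and reached 555 and 698 kb. A peak of that size need not mean local signal at every base. Members made up between 12.4% of replicated peaks on chromosome 22 and 23.4% on chromosome 19. Just inside the 50% threshold were a peak at DET1, a ubiquitin ligase adaptor, and a peak on chromosome 1 without a coding gene start, both at the threshold itself in the lower library. Just outside were the signalling adaptor TRAF3 at 49.9% and a region near MIR130AHG at 49.95%.

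With EPZ011989, H3K4me3 covered more of the windows made of bivalent peaks and their flanks than in vehicle. Inside the bivalent peaks alone the medians overlapped, at 1183 and 1131 bp with EPZ011989 and 1210 and 1067 bp in vehicle. In windows of the other peaks the medians also overlapped between treatments. Covered length was the number of bases under H3K4me3 peaks in a window of the merged peak plus 2500 bp on each side. Its median over the bivalent windows was 1935 and 1614 bp in the EPZ011989 libraries and 1326 and 1362 bp in the vehicle libraries, so the treatments did not overlap. The means of these medians were 1775 ± 227 bp with EPZ011989 and 1344 ± 25.5 bp in vehicle (SD, n = 2 each; exact two-sided permutation p = 0.333, the smallest that 2 against 2 libraries allow). In the other replicated peaks the medians were 2402 and 2051 bp with EPZ011989 and 2212 and 2256 bp in vehicle, which overlapped, with means of 2227 ± 248 and 2234 ± 31.1 bp (exact permutation p = 1).

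**Figure D1:**
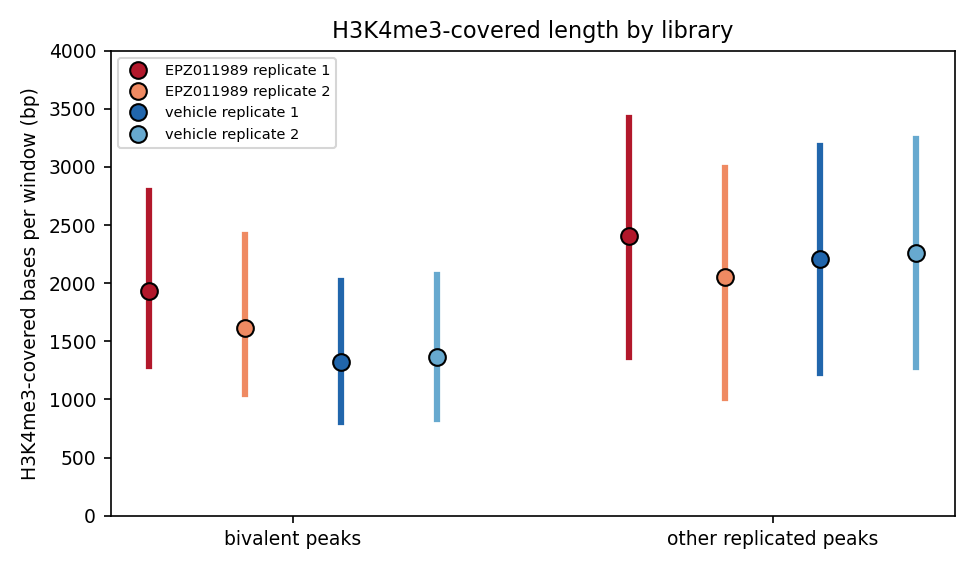
H3K4me3-covered bases per window (bp) in each library, for bivalent peaks (left) and other replicated vehicle peaks (right). Points are medians over windows and bars run from the lower to the upper quartile; bivalent medians were 1935 and 1614 bp with EPZ011989 and 1326 and 1362 bp in vehicle.

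Within each library, the bivalent median minus that of the other peaks was -467 and -437 bp with EPZ011989 and -886 and -894 bp in vehicle. The gap between the sets was thus 438 bp smaller with EPZ011989 (exact two-sided permutation p = 0.333 over 2 against 2 libraries, again the smallest possible). It was 423 to 453 bp when any 1 H3K4me3 library was left out. Window by window, the mean of the EPZ011989 libraries minus the mean of the vehicle libraries had a median of 347 bp in bivalent peaks (5th to 95th percentile -235 to 1448 bp) and -65.5 bp in the others. Without EPZ011989 replicate 1 these medians were 199 and -251 bp, and without EPZ011989 replicate 2 they were 493 and 92.5 bp. The level in other peaks thus followed the library that was kept, while the bivalent windows stayed above it in both. The EPZ011989 libraries also had the higher background, and its part in the difference was not tested.

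Covered length was greater in both EPZ011989 libraries than in both vehicle libraries in 1908 bivalent windows (56.5%), against 22% of all replicated peaks. The other replicated peaks alone gave 2229 windows (14.4%). It was smaller in both EPZ011989 libraries in 115 bivalent windows (3.40%), against 19.9% of all replicated peaks. In 166 bivalent windows (4.91%) the gap was 1000 bp or more, here called expanded, against 1.15% of all. They were 166 of the 216 expanded windows among all replicated peaks. Among the 2974 members with no neighbouring replicated peak in the flank, 111 were expanded. Some of the other expanded windows overlap and count the same covered bases, as at ABTB3, so the 166 are not all separate stretches. The mirror image, a window contracted by 1000 bp or more, occurred in 0 bivalent windows and 0.7% of all. Leaving out EPZ011989 replicate 2 gave 538 expanded members, leaving out vehicle replicate 2 gave 273, and leaving out vehicle replicate 1 gave 236.

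limma, fitted to all 18845 windows with Benjamini-Hochberg adjustment at 0.05, called 0 bivalent windows higher and 0 lower, as among all windows (0%). The smallest adjusted p was 0.0992. At an unadjusted p below 0.05, 788 bivalent windows were higher (6.12% of all windows were) and 30 were lower (5.82% of all). Quantile normalization gave 152 bivalent windows called higher and 0 lower, against 26 higher and 113 lower among the other peaks (0.945% and 0.6% of all windows). Leaving out EPZ011989 replicate 2 gave 209 bivalent windows higher and 0 lower, against 70 and 43 others (1.48% and 0.228% of all). Leaving out EPZ011989 replicate 1 gave 7 higher and 0 lower, against 2 and 37 others (0.0478% and 0.196% of all). EPZ011989 replicate 1 exceeded replicate 2 by a median of 298 bp in bivalent and 331 bp in other windows, a spread between replicates close to the size of the median difference between treatments.

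The borders of each merged peak were those of vehicle replicate 1, which is therefore covered whole inside them, so a gain over it could be seen only in the flanks. Inside the merged peak the median covered length was 1183 and 1131 bp with EPZ011989 and 1210 and 1067 bp in vehicle. In the flanks the mean was 800 and 524 bp with EPZ011989 and 122 and 311 bp in vehicle. Vehicle replicate 1 is low there by the same construction. In other replicated peaks the flank means were 558 and 344 bp with EPZ011989, and 255 and 473 bp in vehicle, which overlapped. With windows anchored on vehicle replicate 2 peaks instead, the median difference was 346 bp in bivalent and -65.5 bp in other peaks.

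Around 915 start sites that were alone in their bivalent window, coverage was greater with EPZ011989 on both sides. Downstream of the start, within 2500 bp, the median covered length was 1341 and 1158 bp with EPZ011989 and 983 and 973 bp in vehicle. Upstream it was 728 and 613 bp with EPZ011989 and 512 and 517 bp in vehicle. The median difference was 216 bp downstream and 123 bp upstream, and 0 and 9 bp at 4136 start sites of other replicated peaks. At 1500 bp downstream, 41.0% and 31.0% of bivalent start sites were covered with EPZ011989, against 21.4% and 22.5% in vehicle. At the same distance in other peaks the shares were 64.5% and 54.1% with EPZ011989 and 58.7% and 59.4% in vehicle.

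**Figure D2:**
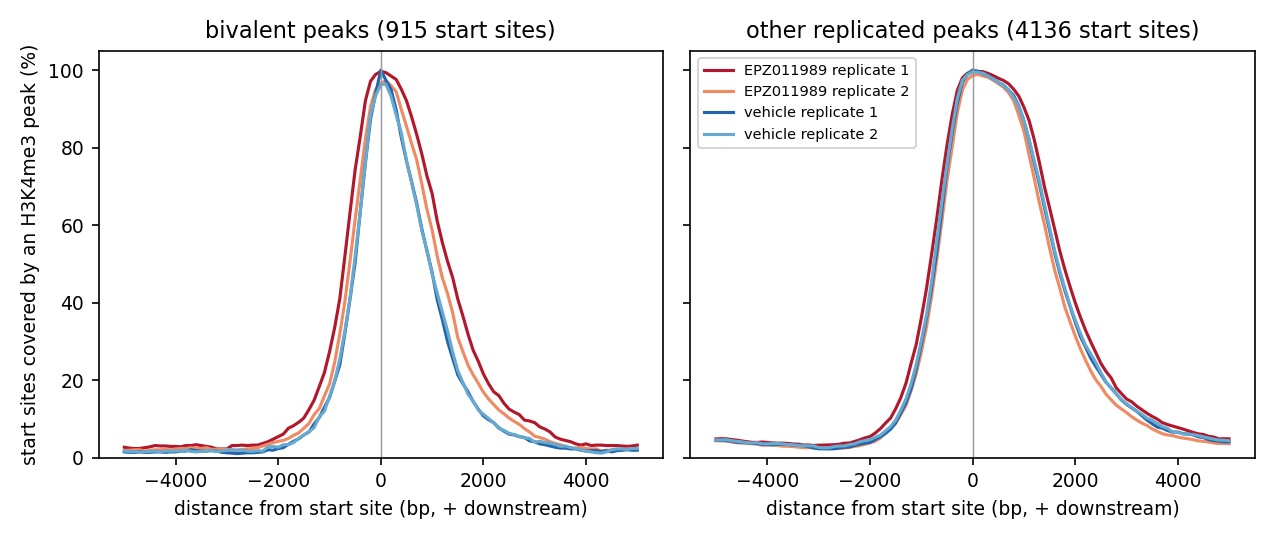
Share of start sites (%) covered by an H3K4me3 peak at each distance (bp, positive downstream) in the 4 libraries. At bivalent peaks (left) both EPZ011989 curves lie above the vehicle curves at 1500 bp downstream (41.0% and 31.0% against 21.4% and 22.5%), while at other peaks (right) the vehicle curves fall between the EPZ011989 curves there.

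The difference was larger where vehicle H3K27me3 covered more of the peak. Peaks with no vehicle H3K27me3 had a median difference of -105.5 bp, those with up to 25% of bases under the mark in the lower library 20.5 bp, and those with 25 to 50% 117.5 bp. Members between 50 and 75% had 190 bp, those between 75 and 100% had 205 bp, and the 2410 members covered whole in both libraries had 417.5 bp. Of the 166 expanded members, 155 were among these 2410. The order was the same in each EPZ011989 library against the vehicle mean, running from 55.5 to 554 bp in replicate 1 and from -298 to 267 bp in replicate 2. No step between neighbouring classes was tested.

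**Figure D3:**
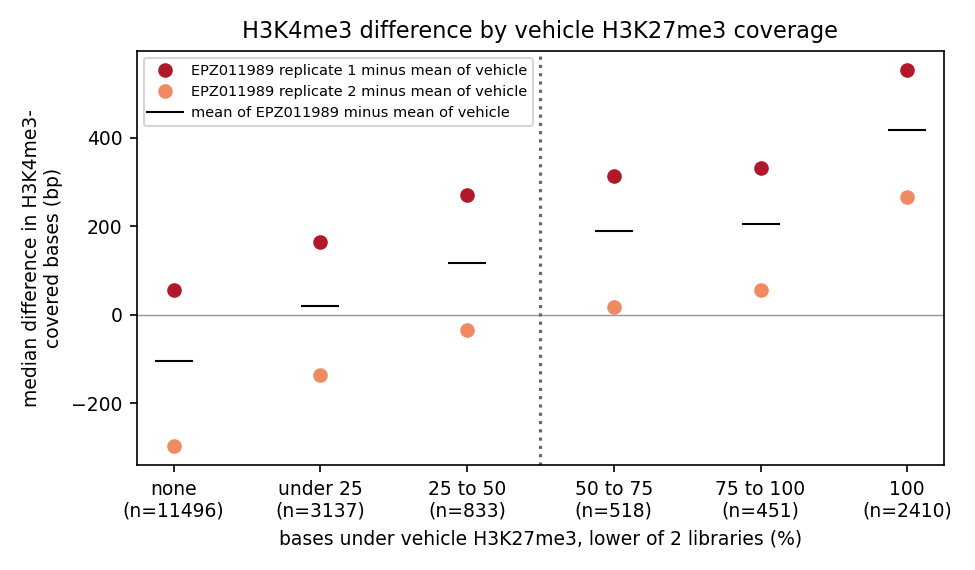
Median difference in H3K4me3-covered bases (bp) for replicated vehicle peaks grouped by the share of bases (%) under vehicle H3K27me3. Points are each EPZ011989 library minus the vehicle mean, dashes are both treatments' means, and classes right of the dotted line are the bivalent peaks; the dashes run from -105.5 bp with no H3K27me3 to 417.5 bp at 100%.

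The contrast between the sets was present at each vehicle width. When all replicated peaks were split into 4 classes of equal size by vehicle covered length, the median difference from the narrowest to the widest class was 282.5, 368, 438 and 513 bp in bivalent peaks. In the same classes of other peaks it was -163, 21.5, -12 and -134 bp. These classes match width and not peak strength. Ranked by the peak caller's fold enrichment within each vehicle list, bivalent peaks had median percentiles of 46.1 and 48.1. Other replicated peaks had 63.1 and 65.5, and the part of strength in the difference was not tested. Members held by a vehicle replicate 1 H3K27me3 peak under 5 kb had a median difference of 199.5 bp (1079 members). Those held by a peak of 5 to 20 kb had 424 bp (1810), and those held by a larger one 456 bp (490).

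A protein-coding gene start, or either gene end where no start was known, lay within 2500 bp of 2136 members (63.2%). Only a long non-coding RNA gene lay near 281 (8.32%), and neither near 962 (28.5%). Over all replicated peaks these shares were close to those of the members, at 60.2%, 6.13% and 33.6%. The median difference of members was 409 bp near coding genes, 338 bp near non-coding RNA genes only and 207.5 bp near neither. The same medians over all replicated peaks were 51.25, 27.25 and -116 bp, also highest near coding genes. A total of 2210 coding genes were reached, 170 members having more than 1. Windows of 405 members reach into a neighbouring replicated peak, so those windows are not independent of each other. The 1161 RefSeq promoters (300 bases, to 50 after the start) inside members had a median of 71.0% GC and 31 CG dinucleotides. Promoters inside other replicated peaks had 66.0% and 28 (7805 promoters), and those outside any replicated peak 54.7% and 6 (6135). The letters TATAAA, on either strand, were in 4.39% of bivalent promoters, 4.50% of the others in peaks and 9.71% of all 15101 promoters. GGGCGG, on either strand, was in 83.2%, 74.8% and 58.9%.

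The 10 members with the largest gap between the lower EPZ011989 and the higher vehicle value included developmental and neuronal genes, and 9 of them are described. HOXD11, a limb-patterning homeobox gene whose promoter is printed above, had 4395 and 4495 bp with EPZ011989 and 874 and 1651 bp in vehicle (chr2:176106735-176107608, a difference of 3183 ± 333 bp SE, limma adjusted p = 0.130). TBX2, a T-box repressor, had 4596 and 4541 bp with EPZ011989 and 2012 and 1999 bp in vehicle (chr17:61398966-61400510, 2563 ± 256 bp, limma adjusted p = 0.123). At TBX2 the replicates of each treatment lay close together and far from those of the other.

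ZEB2, a zinc-finger repressor of neural crest and epithelial-mesenchymal transition, had 4499 and 4201 bp with EPZ011989 and 1649 and 1918 bp in vehicle (chr2:144516337-144517985). TUBB2B, a beta-tubulin of developing neurons, had 4502 and 4681 bp with EPZ011989 and 1376 and 2296 bp in vehicle (chr6:3226987-3228362). SCRT1, a neuronal zinc-finger repressor, had 5909 and 5271 bp with EPZ011989 and 2835 and 2865 bp in vehicle. In all of these windows the lower EPZ011989 library was more than 2000 bp above the higher vehicle library. The Notch ligand gene DLL1, whose window also reaches FAM120B, had 8271 and 7182 bp with EPZ011989 and 3883 and 4952 bp in vehicle. MMP17, a membrane-anchored metalloproteinase, had 4389 and 3933 bp with EPZ011989 and 1349 and 719 bp in vehicle. KCNK9, a background potassium channel, had 5439 and 4942 bp with EPZ011989 and 2149 and 2598 bp in vehicle. Another was a peak at the non-coding RNA gene LOC124902776, with 2878 and 3106 bp in EPZ011989 and 674 and 679 bp in vehicle. None of the 10 passed the adjusted threshold.

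**Figure D4:**
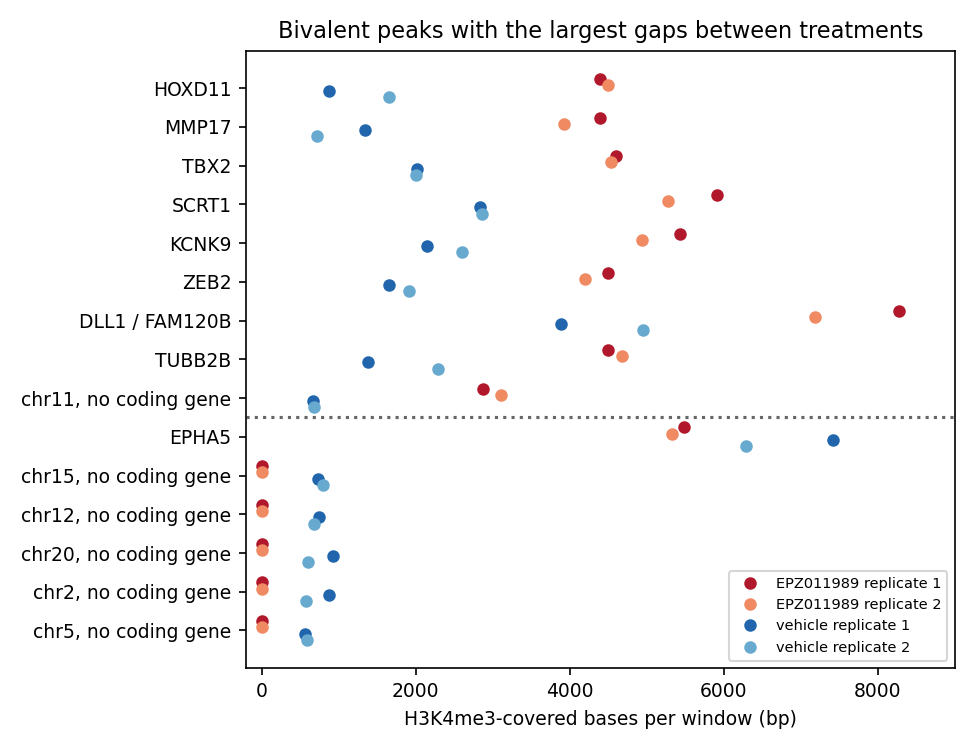
H3K4me3-covered bases per window (bp) in the 4 libraries for 9 of the 10 bivalent peaks with the largest gap upward with EPZ011989 (above the dotted line) and the 6 with the largest gap downward (below it). HOXD11 reached 4395 and 4495 bp with EPZ011989 against 874 and 1651 bp in vehicle, and 5 peaks without a coding gene start were at 0 with EPZ011989.

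In the other direction the largest gap was at EPHA5, an ephrin receptor of developing neurons. It had 5482 and 5327 bp with EPZ011989 and 7419 and 6291 bp in vehicle (chr4:65664779-65671844, a difference of -1451 ± 489 bp SE, limma adjusted p = 0.360). The groups did not overlap, but the vehicle replicates differed by more than the gap of 809 bp between the treatments. The next 5 were peaks of 564 to 933 bp with no coding gene start within 2500 bp. All had 0 bp in both EPZ011989 libraries and 564 to 933 bp in vehicle replicate 1.

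Of the 8 bivalent windows widest in vehicle, 5 overlapped between treatments, 1 was shorter in both EPZ011989 libraries and 2 were longer in both. The window of HES7, a segmentation-clock repressor, and of ALOXE3, an epidermal lipoxygenase, had 9770 and 9275 bp with EPZ011989 and 9559 and 9777 bp in vehicle. FOXC1, a forkhead factor, had 8090 and 7213 bp with EPZ011989 and 7719 and 7240 bp in vehicle, and RGMB, a BMP co-receptor, had 7110 and 7725 bp with EPZ011989 and 8118 and 6494 bp in vehicle. The other overlapping windows had no coding gene start, one on chromosome 2 with 9317 and 7856 bp with EPZ011989 and 8143 and 7620 bp in vehicle, and one on chromosome 13 with 8616 and 7279 bp with EPZ011989 and 6921 and 7491 bp in vehicle. FGF9, a growth factor, had 7608 and 7766 bp with EPZ011989 and 7893 and 8182 bp in vehicle. BAHCC1, a chromatin protein with a BAH domain that reads H3K27me3, had 12448 and 10623 bp with EPZ011989 and 8381 and 9861 bp in vehicle. The other longer one, at BMI1, is described with the Polycomb genes.

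Among gene families, transcription factor genes contributed many members. Of 39 HOX genes, which pattern the body axis, 25 had a replicated peak and 12 (48.0%) lay at 13 bivalent peaks, against 17.9% of all 12313 coding genes with a replicated peak. Their median difference was 1104 bp, 10 of 13 windows (76.9%) were longer in both EPZ011989 libraries and 3 were expanded. Of all bivalent windows, 56.5% were longer in both and 4.91% were expanded, and these shares belong beside the counts of every list. The 10 other replicated peaks at HOX genes had a median difference of 347 bp. Over all lists, medians of other peaks ran from -386 bp (forkhead, SOX, T-box and GATA) to 360 bp (potassium channels). HOXD13 had 1872 and 1851 bp with EPZ011989 and 639 and 876 bp in vehicle. HOXD12 had 2551 and 2224 bp with EPZ011989 and 689 and 1017 bp in vehicle. HOXA13 had 5765 and 3966 bp with EPZ011989 and 2832 and 3030 bp in vehicle, and HOXC9 had 5302 and 3422 bp with EPZ011989 and 2267 and 3058 bp in vehicle. The 3 windows that overlapped between treatments were those of HOXA10 and HOXD1 and 1 of the 2 at HOXC6.

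Other homeobox genes held 46 members at 42 of 68 genes with a replicated peak (61.8%, against 17.9% of all coding genes with one). Their median difference was 797 bp, with 32 (69.6%) longer in both EPZ011989 libraries and 9 expanded. POU3F3, a neural POU factor, had 6118 and 4609 bp with EPZ011989 and 2827 and 2248 bp in vehicle. LHX1, a LIM homeobox factor of kidney and neuron development, had 4655 and 3688 bp with EPZ011989 and 1284 and 1825 bp in vehicle. NKX2-5, a cardiac factor, overlapped between treatments, with 2029 and 1955 bp with EPZ011989 and 1713 and 2211 bp in vehicle. Of 28 forkhead, SOX, T-box and GATA genes with a replicated peak, 22 (78.6%) were at members. They held 24 members (median difference 552 bp, 18 longer in both, 4 expanded). Of these, SOX11, a neuronal SOX factor, had 5462 and 5402 bp with EPZ011989 and 3834 and 3625 bp in vehicle, and SOX21 had 2910 and 2601 bp with EPZ011989 and 1060 and 1195 bp in vehicle. Basic helix-loop-helix genes held 14 members at 14 of 23 genes with a replicated peak (60.9%). Their median difference was 745 bp, with 11 (78.6%) longer in both and 2 expanded. MYOD1, the myogenic regulator, had 1889 and 1737 bp with EPZ011989 and 448 and 896 bp in vehicle. NHLH2, a neuronal factor, had 2927 and 3115 bp with EPZ011989 and 1515 and 1767 bp in vehicle, and BHLHE22 had 5021 and 4282 bp with EPZ011989 and 2149 and 2260 bp in vehicle.

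**Figure D5:**
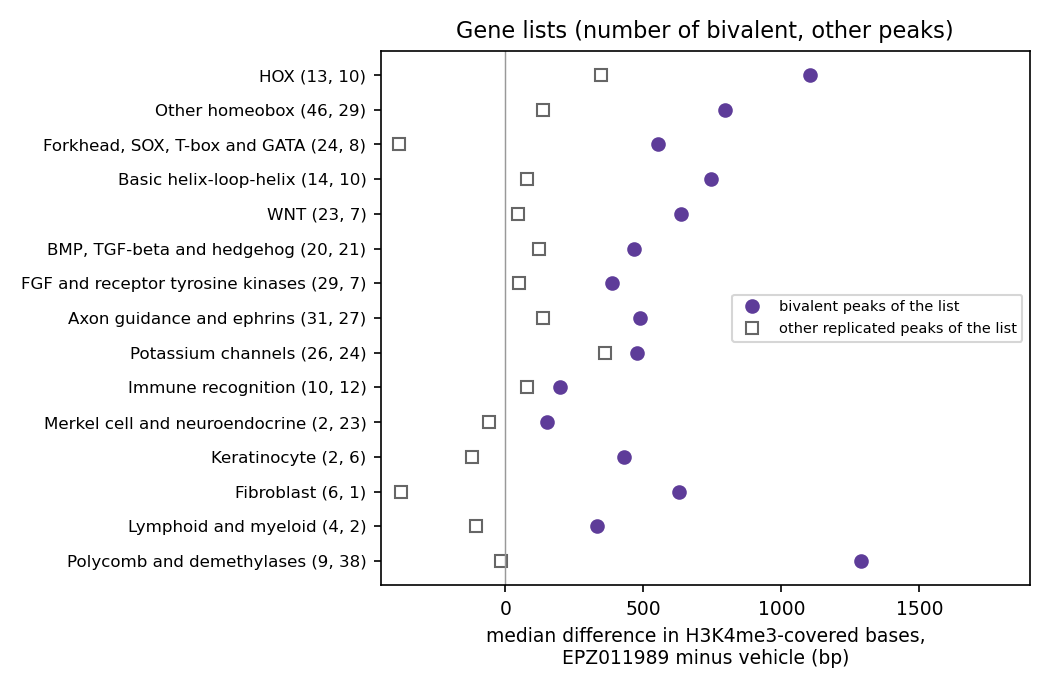
Median difference in H3K4me3-covered bases (bp, EPZ011989 minus vehicle) for each gene list, over its bivalent peaks (filled circles) and its other replicated peaks (open squares), with the number of each in brackets. The circles run from 151 bp for 2 Merkel cell and neuroendocrine peaks to 1290 bp for 9 Polycomb and demethylase peaks; the lists were chosen with earlier results known and no list was tested.

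Signalling genes had members among ligands, receptors and inhibitors. The WNT list had 23 members at 21 of 28 genes with a replicated peak (75%, against 17.9% of all coding genes with one). Their median difference was 638 bp, and 19 were longer in both EPZ011989 libraries. The ligand gene WNT9A had 3450 and 2741 bp with EPZ011989 and 967 and 1723 bp in vehicle. The receptor gene FZD2 had 2840 and 3238 bp with EPZ011989 and 1559 and 1798 bp in vehicle. NKD2, an antagonist of Dishevelled, had 2286 and 1719 bp with EPZ011989 and 511 and 679 bp in vehicle. The 3 windows were each longer in both EPZ011989 libraries.

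BMP, TGF-beta and hedgehog genes had 20 members at 19 of 36 genes with a replicated peak (52.8%). The share was 17.9% over all coding genes with a replicated peak. These 20 members had a median difference of 466 bp, and 16 (80.0%) were longer in both, against 56.5% of all bivalent windows. The ligand gene TGFB1 had 3028 and 3119 bp with EPZ011989 and 490 and 1467 bp in vehicle. The BMP antagonist NOG had 5101 and 4677 bp with EPZ011989 and 2678 and 1935 bp in vehicle, and the inhibitory SMAD6 had 5365 and 5015 bp with EPZ011989 and 3574 and 3237 bp in vehicle. FGF and receptor tyrosine kinase genes had 29 members at 28 of 34 genes with a replicated peak (82.4%). Their median difference was lower, 387.5 bp. In both EPZ011989 libraries 14 (48.3%) were longer, below the 56.5% of all bivalent windows, and 1 was shorter. FGFR2 had 3468 and 3029 bp with EPZ011989 and 1528 and 1469 bp in vehicle, and NTRK3, a neurotrophin receptor gene, had 2208 and 2639 bp with EPZ011989 and 1393 and 1023 bp in vehicle. The window of FGF11, one of the intracellular FGF-related genes, had 4833 and 3121 bp with EPZ011989 and 3049 and 2939 bp in vehicle. KIT, a receptor gene, overlapped between treatments, with 3450 and 3202 bp with EPZ011989 and 3458 and 3176 bp in vehicle.

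Of 53 axon guidance and ephrin genes with a replicated peak, 29 (54.7%) were at members, against 17.9% of all coding genes with one. They had 31 members (487 bp, 23 longer and 1 shorter in both). The 23 were 74.2% of the list's members, against 56.5% of all bivalent windows. SLIT3, a secreted guidance cue, had 1629 and 1991 bp with EPZ011989 and 424 and 492 bp in vehicle. PLXNA2, a semaphorin co-receptor, had 5170 and 3930 bp with EPZ011989 and 2722 and 3504 bp in vehicle. Of 47 potassium channel genes with a replicated peak, 25 (53.2%) were at 26 members (476 bp), of which 17 (65.4%) were longer in both. The list's 24 other replicated peaks had a median difference of 360 bp. KCNA3, a voltage-gated channel of T cells and neurons, had 7513 and 7465 bp with EPZ011989 and 5736 and 5579 bp in vehicle, and KCNG1, a modifier subunit, had 3730 and 3329 bp with EPZ011989 and 1869 and 2201 bp in vehicle.

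Immune recognition genes had 10 members at 11 of 21 genes with a replicated peak (52.4%, against 17.9% of all coding genes with one). Their median difference was 199 bp. In both EPZ011989 libraries 3 (30.0%) were longer, below the 56.5% of all bivalent windows, and 1 was shorter. CD276, an immune checkpoint ligand gene, had 2107 and 1667 bp with EPZ011989 and 311 and 502 bp in vehicle. The peak shared by PSMB9, an immunoproteasome subunit, and TAP1, a peptide transporter for antigen presentation, had 2585 and 2235 bp with EPZ011989 and 2096 and 2197 bp in vehicle. HLA-F, a non-classical class I gene, had 1249 and 807 bp with EPZ011989 and 762 and 666 bp in vehicle. The lower EPZ011989 value was only 45 bp above the higher vehicle value at HLA-F and 38 bp above it at PSMB9 and TAP1. ULBP2, a ligand of the NKG2D receptor, had 1390 and 1420 bp with EPZ011989 and 1448 and 1531 bp in vehicle.

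Of 34 genes of the Polycomb and demethylase list with a replicated peak, 7 (20.6%) lay at bivalent peaks. This was close to the 17.9% of all coding genes with a replicated peak. They held 9 members, with a median difference of 1290 bp and 3 expanded. Of the 9, 8 (88.9%) were longer in both EPZ011989 libraries, against 56.5% of all bivalent windows. Among the genes at members were BMI1, CBX2, CBX7, CBX8 and EPOP. KMT2B, which the list also held, was at a member too, but it is an MLL-family H3K4 methyltransferase and neither a Polycomb gene nor a demethylase. EZH2, EED and SUZ12 had replicated peaks that were not bivalent. BMI1, a Polycomb repressive complex 1 subunit, had 8976 and 8565 bp with EPZ011989 and 7323 and 6802 bp in vehicle. CBX8, a chromobox reader, had 6430 and 6679 bp with EPZ011989 and 4213 and 5284 bp in vehicle. CBX7, another chromobox reader, had 2768 and 2505 bp with EPZ011989 and 1667 and 1495 bp in vehicle.

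Markers of the line's own cell type were mostly outside the bivalent set, as were most coding genes with a replicated peak. Of 23 Merkel cell and neuroendocrine genes with a replicated peak, 2 (8.70%) were at members, against 17.9% of all coding genes with one. These were the synaptic vesicle genes SYT1 and RAB3C. SYT1 had 2099 and 2219 bp with EPZ011989 and 1773 and 1854 bp in vehicle, and RAB3C had 2560 and 2148 bp with EPZ011989 and 2489 and 2306 bp in vehicle. Of 7 fibroblast genes with a replicated peak, 6 (85.7%) were at members, all 6 longer in both EPZ011989 libraries (median difference 630 bp). Of all bivalent windows, 56.5% were longer in both. COL1A1, a collagen gene, had 2100 and 2437 bp with EPZ011989 and 843 and 1877 bp in vehicle, and COL5A1 had 1497 and 998 bp with EPZ011989 and 426 and 409 bp in vehicle. FBN1, the fibrillin gene, had 1814 and 1381 bp with EPZ011989 and 692 and 1003 bp in vehicle.

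Keratinocyte genes had 2 members at 2 of 6 genes with a replicated peak (33.3%, against 17.9% of all coding genes with one). They were the hemidesmosome integrin genes ITGB4 and ITGA6. ITGB4 had 1289 and 1467 bp with EPZ011989 and 859 and 807 bp in vehicle, and ITGA6 had 2021 and 1127 bp with EPZ011989 and 1363 and 1151 bp in vehicle, which overlapped. Lymphoid and myeloid genes had 4 members at 3 of 5 genes with a replicated peak (60%). Of these members, the window shared by CD4 and GPR162 had 2038 and 2862 bp with EPZ011989 and 779 and 567 bp in vehicle. CD14, a monocyte receptor gene, had 2 members in 1 shared stretch, with 1610 and 1309 bp with EPZ011989 and 1082 and 1173 bp in vehicle. CD8A, a T cell co-receptor gene, was shorter in both EPZ011989 libraries, with 1484 and 1437 bp with EPZ011989 and 1556 and 1753 bp in vehicle. Of 30 housekeeping genes, all 30 had a replicated peak and 0 were at members. Their 39 other peaks had a median difference of -97.5 bp.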

How the data were processed

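CUT&RUN peak lists of 12 libraries (EPZ011989 or vehicle; H3K27me3, H3K4me3 or IgG; 2 each) were analysed. The submitters' processing notes name MACS2 2.1.1.20160309, Bowtie2 2.2.9 and SAMtools 0.1.19, and the build hg38; calling thresholds, controls and any spike-in scaling are not given in the sources used here. The deposited lists give start and end, a score, a fold enrichment (ratio) and −log10 p and q per peak, all made by the authors' peak caller. Background per base was solved from the deposited fold and −log10 p of the most frequent peak value in each list.

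Peaks were merged within each library on chromosomes 1 to 22. Covered bases per window (peak plus 2500 bp each side) were fitted in R 4.3.3 using limma 3.58.1 (robust, with trend, no scaling, no filter, Benjamini-Hochberg over 18845 windows, threshold 0.05), and per-library medians with exact permutation tests. A count model was not used, since covered length is no count. Simulated data with known changes were used to test the fit: it called 100 of 100 windows given 2000 bp more, 53 of 100 given 1000 bp more and 5 of 18645 left unchanged. Noise in all 4 simulated libraries was drawn from the spread between the 2 vehicle libraries, so the spread between the EPZ011989 libraries was left out. In bivalent windows vehicle replicate 1 minus replicate 2 had a median of -26 bp, and EPZ011989 replicate 1 minus replicate 2 had 298 bp. The simulated rates did not carry over to the real libraries, where the fit called 0 windows. TBX2, higher by 2563 bp (limma adjusted p = 0.123), and MMP17, higher by 3127 bp (limma adjusted p = 0.130), stayed uncalled. The lack of calls therefore does not show that changes of 2000 bp were absent.

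Genes came from the RefSeq table (GRCh38.p14), a coding gene belonging to a peak when its start, or either end where no start was known, lay within 2500 bp. Named were genes of the 8 widest members, the 10 largest gaps upward and 6 downward, up to 3 members per gene list, members nearest the threshold, and members without H3K4me3 or with H3K27me3 after EPZ011989; other list members named, such as HOXD13 and KIT, were chosen after their values were seen. Members and the 16 lists were chosen with earlier results of these data known. Replicate numbers are not stated to pair cultures, and same-numbered libraries did not deviate together (r = -0.037 over all windows). Some named members are not reported here.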

Additional observations from a re-analysis of the deposited data

How the results depend on the processing

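Of 157 recomputed values, 123 kept to their tolerance (a count within 1.5 times, a difference of the same sign, a share within its exact 95% interval) and 34 did not. Only the median differences could reverse in sign, and 0 of them did. With peaks of −log10 q 5 or more there were 1858 members, 1 called higher (0.00625% of windows), 99.9% and 98.6% retained, and 0% of bases left under H3K27me3 in both libraries. Calls higher were 152 with quantile normalization (0.945% of all windows), 1 with isolated windows (0.00653%) and 0 to 209 with a library left out (at most 1.48%), while other peaks had 113, 0 and up to 43 calls lower; with a replicate block limma called 0 higher and 0 lower, and the block changed no call; limma without trend and robust also called 0. With a flank of 0 bp, where vehicle replicate 1 is covered whole by construction, 22 members (and 404 other peaks, 2.26% of all windows) were called lower, the median difference was 0 bp and 0 were expanded; a flank of 1000 bp gave 84 expanded. Margins of 500 and 2000 bp gave 541 and 14 expanded, and 500 bp gave 8 contracted, a 25% threshold 1. With a library left out, expanded members ranged from 166 to 538, contracted from 0 to 1, the median difference from 199 to 493 bp, retention from 97.5% to 97.8% in EPZ011989 replicate 1 and from 93.4% to 93.6% in replicate 2. H3K27me3 left in EPZ011989 replicate 1 was 0.0359% of bases at a 25% and 0.0569% at a 90% threshold, 0.0268% when anchored on vehicle replicate 2, 0.0144% when replicate 2 covered 50% of the peak or more, and 0.037% to 0.0454% without 1 vehicle H3K27me3 library. In EPZ011989 replicate 2 it was 0.00132% when anchored on vehicle replicate 2 and 0.000391% to 0.0111% without 1 vehicle H3K27me3 library. Causes were not tested. The difference between bivalent and other peaks was 370 to 700.5 bp in all settings other than a flank of 0 bp, where it was 115 bp. Peak lists hold no read counts, so changes in signal within a peak are not seen, and the libraries' unequal background limits comparison of covered length.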

Other observations

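Some of the 166 expanded members belong to genes outside the lists and are named here after their values were seen. NGFR, a neurotrophin receptor gene, had 2240 and 2237 bp of H3K4me3-covered length with EPZ011989 and 252 bp in each vehicle library. NTF3, a neurotrophin gene, had 2777 and 2990 bp with EPZ011989 and 1672 and 853 bp in vehicle, and VGF, a neuropeptide precursor gene, had 6216 and 5612 bp with EPZ011989 and 3690 and 3516 bp in vehicle. The chemokine gene CXCL12 had 4236 and 3549 bp with EPZ011989 and 1851 and 1516 bp in vehicle, and the growth factor gene VEGFA had 4443 and 5238 bp with EPZ011989 and 3220 and 3408 bp in vehicle. Among early-response transcription factors, FOS had 5512 and 5207 bp with EPZ011989 and 3338 and 3728 bp in vehicle, and EGR1 had 5480 and 5286 bp with EPZ011989 and 3718 and 4180 bp in vehicle. None of these windows passed the adjusted limma threshold.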
